A study of Mus musculus with 3 samples.

Results

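Integrin and laminin chains were read in 3 cell fractions of mouse epididymal fat. The members are the genes whose name in the array annotation is that of an integrin alpha chain (Itga with its number or letter), an integrin beta chain (Itgb) or a laminin chain (Lama, Lamb or Lamc). The array carries 37 such genes, namely 26 integrin chains (18 alpha and 8 beta) and 11 laminin chains. They are covered by 94 of 56605 probes and make up 37 of 37074 genes. The study asked how gene expression differs between stromal vascular cells and a small adipocyte fraction of the same tissue.

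Fat of male C57/BL mice aged 20 weeks was dispersed with collagenase. After a spin of 1 s at 9 g, the lower phase gave the stromal vascular cells (SVC). A spin of 3 min at 226 g then parted the floating cells into a sediment, named small proliferative adipocytes (SPA), and mature adipocytes (MA) on top. SVC and SPA were grown in DMEM to 90% confluence before RNA was taken, and no culture is described for MA. Each fraction was hybridized to 1 Agilent array from 50 ng of total RNA, so no difference has a replicate check and no test was run. The sources used here do not say how many animals were pooled for an array. Each fraction is defined by how its cells sediment or float. SVC is a mixture of cell types, and markers of several cell types were also read in SPA and MA.

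Integrins are paired alpha and beta chains in the cell membrane that hold a cell to the matrix or to another cell and link that contact to the actin cytoskeleton. Laminins are trimers of an alpha, a beta and a gamma chain and form the sheet of the basement membrane, which wraps each adipocyte and lines each capillary of fat. Beta chains are shared, so that Itgb1 serves most matrix receptors, Itgb2 serves the receptors of leukocytes, and Itgav takes several beta partners.

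The probes behind the largest differences are shown first, since some of these chains were read differently by different probes. Every probe is 60 bases long, and 15 of the 94 lie across an exon junction, so that their span on the genome exceeds their length. Positions are those of the mm9 build in the array annotation, and the exon or untranslated region at each position is not given in the sources used here. For junction probes the whole sequence is printed, and for the others the first 30 bases, 5′ to 3′ and in lower case throughout. The junction probes of Itga1 and Itgae, both the brightest of their gene, read as follows.
Itga1, chr13:115756765-115758419, minus strand: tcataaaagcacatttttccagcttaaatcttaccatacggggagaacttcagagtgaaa
Itgae, chr11:72959105-72960563, plus strand: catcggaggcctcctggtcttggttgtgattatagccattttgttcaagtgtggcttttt
The pair of Itga7 probes lies on chromosome 10, and both probes gave the same direction.
Itga7, brightest probe, chr10:128395274-128395333, plus strand: ctctggccttactgtgctgtaccagtccag
Itga7, other probe, chr10:128390852-128390911, plus strand: cgagccaacatcacagtgaaatcctccatt
These Itga6 probes gave opposite directions between SPA and MA.
Itga6, brightest probe, chr2:71694756-71694815, plus strand: gagaatgagaacctgggaggtcttgttgtt
Itga6, probe to another transcript record, chr2:71690633-71690692, plus strand: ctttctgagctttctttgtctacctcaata
The Itga3 probes differed in both comparisons.
Itga3, brightest probe, chr11:94905987-94906046, minus strand: agacttaactctgctcccttgaccacagag
Itga3, junction probe, chr11:94915485-94917062, minus strand: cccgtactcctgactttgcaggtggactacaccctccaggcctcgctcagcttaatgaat
The next pair belongs to leukocyte chains that were lower in MA.
Itgax, brightest probe, chr7:135294052-135294111, plus strand: tcccatctacttttgcaacgttggaattga
Itgb7, its 1 probe, chr15:102046450-102046509, minus strand: atttttcagagtgaccttcagagggcagca
Both Itgam probes are shown because the brightest begins with a CA repeat.
Itgam, brightest probe, chr7:135261755-135261814, plus strand: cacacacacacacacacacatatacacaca
Itgam, other probe, chr7:135212140-135212199, plus strand: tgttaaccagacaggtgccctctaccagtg

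A level here is the log2 of a probe's processed signal relative to the 75th percentile of all noncontrol spots on that array. The percentile stood at a signal of 430 for SVC, 439 for SPA and 366 for MA. Each gene is represented by its brightest probe, the one whose level averaged highest across the 3 arrays. A probe that the software did not mark as well above background has only a bound on that array, and a ratio against it is written as at least so many fold. Single levels are compared between arrays for 1 probe, never between probes. Sums over a marker list add the levels of different probes, so genes with bright probes weigh most in them. The array software gave a signal error of 10% to 20.4% for these spots. Among 300 probes spotted 10 times on each array, the median SD of the log2 signal within an array was 0.04 to 0.05, which covers error within an array and not error between animals or cultures.

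Of the 37 chains, 31 were well above background on all arrays, 5 on some arrays and 1 on none. The exception was Itgad, a leukocyte alpha chain. By array, SVC measured 34 chains well above background, SPA 32 and MA 33. Itgb6 and Itgb8, which with Itgav activate latent TGF-beta, were so only in SVC. Itga2b, the platelet fibrinogen receptor chain, and Itgae, which holds lymphocytes to epithelium, were so only in MA. Itga2, a collagen receptor chain, was so in SVC and SPA but not in MA.

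**Figure D1:**
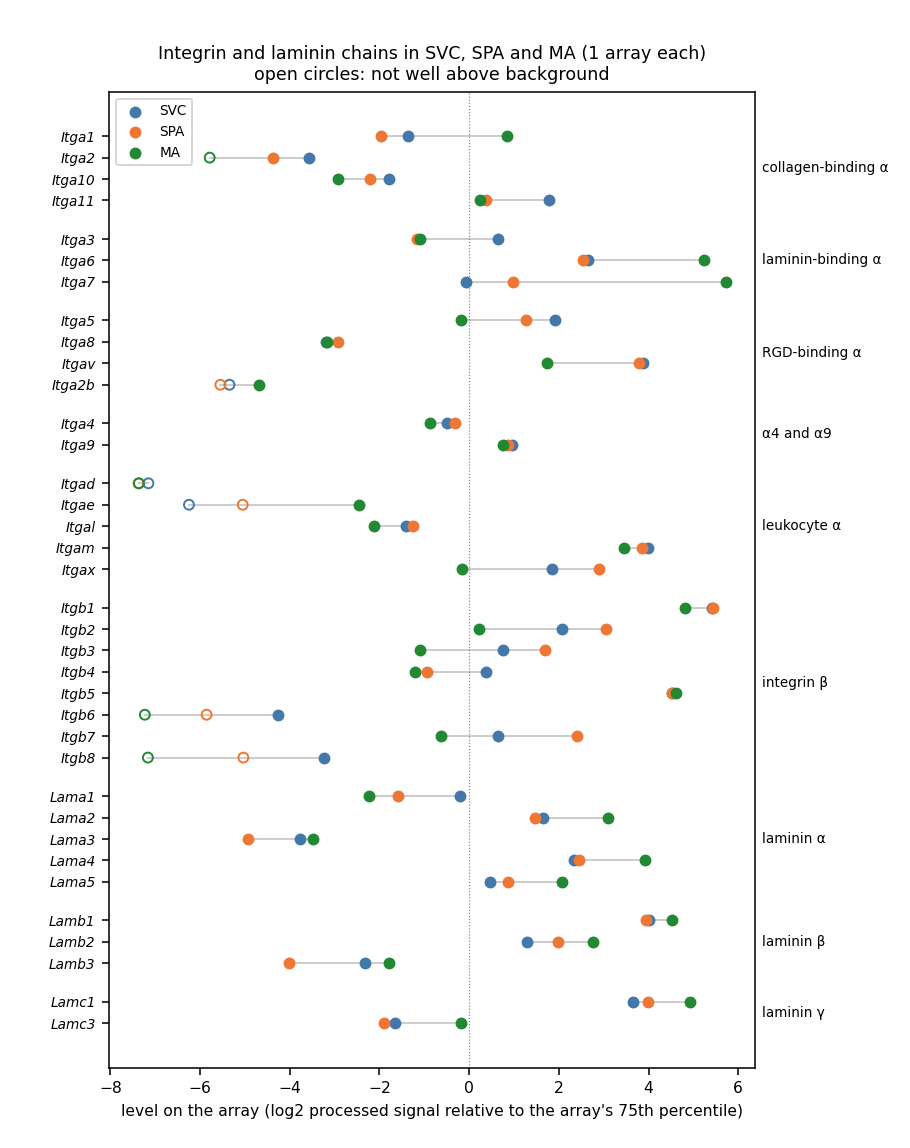
Level of each chain reported here on the 3 arrays, on the log2 scale against the array's 75th percentile, with 1 point per array and open circles where the probe was not well above background. The MA points of Itga7 (5.73), Itga6 (5.24) and Itga1 (0.85) lie well to the right of SVC and SPA, and those of Itgax, Itgb2, Itgb3 and Itgb7 lie to the left.

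SVC and SPA, the fractions that shared culture, differed at 2-fold in 10 chains, mostly toward lower values in SPA. None of the 34 chains well above background in SPA or SVC differed 5-fold. Of all 22664 genes read in this comparison, 0.322% were at least 5-fold higher in SPA and 0.353% at least 5-fold lower. At a limit of 2-fold, 3 chains were higher in SPA (Itga7, Itgax and Itgb7) and 7 lower (Itga3, Itga11, Itgb4, Itgb8, Lama1, Lama3 and Lamb3), beside 3.9% and 3.25% of all genes. Itgb7 and Lama1 stayed past 2-fold under every setting tried, and the other 8 chains fell under it in at least 1 setting. Itgb7 and Lama1 had 1 probe with a ratio each, so the choice of probe could not change them. Over the 32 chains measured on both arrays the log2 ratio had a median of -0.08, and over all genes of 0.05.

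MA differed from SPA in more of the chains than SPA did from SVC, and in both directions, as it did over all genes. Of 34 chains well above background in MA or SPA, 4 were at least 5-fold higher in MA (Itga1, Itga6, Itga7 and Itgae) and 4 at least 5-fold lower (Itgax, Itgb2, Itgb3 and Itgb7). Of all 23957 genes read there, 5.49% were at least 5-fold higher and 3.98% at least 5-fold lower. At 2-fold the counts were 10 higher and 6 lower, beside 15.8% and 17.9% of all genes. The laminin chains had a median log2 ratio of 1.20, the integrin chains of -0.48 and all genes of -0.08. All 4 chains past 5-fold higher were alpha chains, and 3 of the 4 past 5-fold lower were beta chains.

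MA over SVC shares its arrays with the comparisons above and adds no independent value. There, 3 chains were at least 5-fold higher (Itga6, Itga7 and Itgae) and none at least 5-fold lower, beside 5.74% and 3.97% of all 23454 genes. At 2-fold, 10 chains were higher and 13 lower, beside 17.3% and 18.0% of all genes. The median log2 ratio was 1.29 over the laminin chains and -0.91 over the integrin chains. Culture and cell type cannot be told apart in either comparison with MA, nor can the date, which the labels give as another for MA. In a mixed fraction, fewer cells of a type and less RNA per cell cannot be told apart either.

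**Figure D2:**
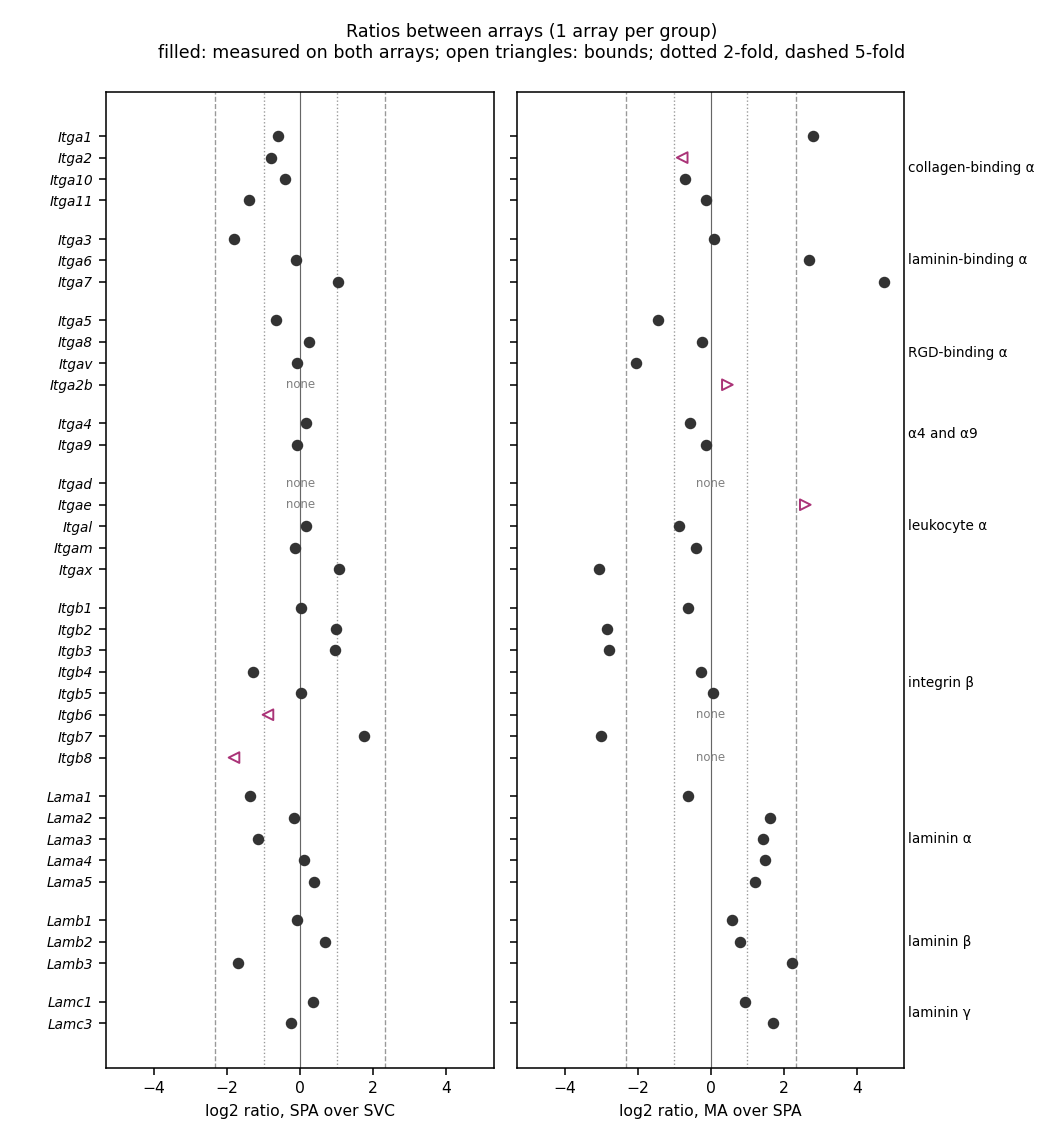
Log2 ratio of each chain reported here for SPA over SVC (left) and MA over SPA (right), grouped by role, with filled points for ratios measured on both arrays, open triangles for bounds, dotted lines at 2-fold and dashed lines at 5-fold. No chain passes a dashed line on the left, and on the right Itga1, Itga6, Itga7 and Itgae pass it upward while Itgax, Itgb2, Itgb3 and Itgb7 pass it downward.

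Laminin-binding alpha chains held the largest difference. Itga7, a laminin receptor chain best known from muscle, had a level of -0.07 in SVC, 0.97 in SPA and 5.73 in MA. SPA exceeded SVC 2.07-fold, and MA exceeded SPA 27.0-fold. The fractions thus stood in the order SVC, SPA, MA. Its other probe gave log2 ratios of 0.72 and 5.03 for the same comparisons, so both probes placed the fractions in that order. For SPA over SVC, its log2 ratio was 0.88 as a median over probes and 0.95 with normexp, another background correction, both under 2-fold.

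Itga6, a laminin receptor chain of epithelium, endothelium and progenitor cells, had levels of 2.66 in SVC, 2.55 in SPA and 5.24 in MA. SVC and SPA lay close together, and MA was 6.46-fold above SPA. The local background of the SPA spot was marked as outlying. Of its 5 probes, 4 were higher in MA, with log2 ratios from 2.69 to 3.17 where both arrays measured the probe and of at least 2.58 and at least 3.32 at the others. The remaining probe, designed to another transcript record, read 3.89 in SVC, 3.03 in SPA and 1.5 in MA, with a log2 ratio of MA over SPA of -1.53. The direction of Itga6 therefore depended on the probe, and without the spots of outlying background the gene was read at that probe.

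Itga3, which pairs with Itgb1 in epithelial and mesenchymal laminin receptors, had levels of 0.65 in SVC, -1.17 in SPA and -1.09 in MA. SVC stood above the other fractions, 3.53-fold above SPA. The junction probe gave another order, with -1.42 in SVC, -0.78 in SPA and -2.08 in MA. For this chain no direction between the fractions held over both probes except that MA was below SVC, with log2 ratios of -1.73 and -0.65.

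Of the collagen-binding chains, Itga1 was highest in MA, and Itga2, Itga10 and Itga11 were highest in SVC. Itga1, a collagen receptor chain of capillaries and smooth muscle, had levels of -1.36 in SVC, -1.97 in SPA and 0.85 in MA, 7.01-fold higher in MA than in SPA. The 3 probes measured on both arrays gave log2 ratios of 2.81, 1.81 and 1.71. All were above 2-fold, and only the brightest was above 5-fold. Itga11, the collagen receptor chain of fibroblasts, had levels of 1.78 in SVC, 0.38 in SPA and 0.24 in MA, 2.63-fold lower in SPA than in SVC. Its second, dim probe was 1.41-fold lower there, and the median of the probes gave a log2 ratio of -0.95, under 2-fold. Itga2 was 1.74-fold lower in SPA than in SVC, and at least 1.72-fold lower in MA than in SPA. Itga10, known from cartilage, was 1.34-fold below SVC in SPA, with MA a further 1.63-fold below SPA, and its second probe gave the opposite sign in both comparisons.

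Of the chains that bind their ligands through the RGD motif, Itga5 and Itgav were lower in MA than in SPA at their brightest probes. Itga8 differed little, and Itga2b was dim and higher in MA. Itga5, the main fibronectin receptor chain, had levels of 1.92 in SVC, 1.27 in SPA and -0.18 in MA, 2.74-fold lower in MA than in SPA. Itgav, the chain of the vitronectin receptors, had levels of 3.87, 3.78 and 1.73, 4.15-fold lower in MA than in SPA. Its 2 other measured probes, both to other transcript records, gave log2 ratios of -0.49 and 0.63 for MA over SPA, so the size and sign differed between probes. Itga8, a nephronectin receptor chain, stayed between -3.19 and -2.94 on all arrays. Itga2b reached a level of -4.68 in MA, at least 1.37-fold above SPA.

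Itga4, which binds VCAM1 on inflamed endothelium, and Itga9, which binds tenascin, differed little between fractions. Their log2 ratios of MA over SPA were -0.56 and -0.13, and those of SPA over SVC 0.17 and -0.07. The spots of Itga9 had outlying local background on all arrays.

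The chains of leukocytes did not move as a block. Itgb2, their common beta chain, had levels of 2.07 in SVC, 3.06 in SPA and 0.22 in MA. SPA exceeded SVC 1.98-fold, and MA was 7.15-fold below SPA. Itgax, the chain of CD11c on dendritic cells and fat macrophages, followed with 1.84, 2.90 and -0.17, an 8.40-fold lower level in MA than in SPA. SPA was thus highest and MA lowest for both chains. A second Itgax probe was 1.56-fold lower in SPA than in SVC, against 2.10-fold higher at the brightest, and both other Itgax probes were lower in MA, at bounds under 5-fold.

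Itgam, the chain of CD11b on myeloid cells, had levels of 3.98 in SVC, 3.86 in SPA and 3.46 in MA at its brightest probe, 1.31-fold lower in MA than in SPA. That probe begins with the CA repeat printed above, and what else it may bind was not tested. The second probe, without such a repeat in its printed bases, had -2.88, -2.82 and -3.06, 1.18-fold lower. Both probes stayed under 2-fold between the fractions. Itgal, the lymphocyte chain of LFA-1, had levels of -1.41, -1.25 and -2.11, 1.83-fold lower in MA than in SPA. Of the alpha chains that pair with Itgb2, then, Itgax was past 5-fold lower, Itgam and Itgal were under 2-fold, and Itgad was not well above background.

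Itgb7 pairs with Itga4 on gut-homing lymphocytes and with Itgae on lymphocytes of epithelium. Its levels were 0.63 in SVC, 2.40 in SPA and -0.62 in MA. SPA exceeded SVC 3.39-fold, the largest such ratio among the measured chains, and MA was 8.08-fold below SPA. Itgae went the other way, from not well above background in SVC and SPA to -2.46 in MA, at least 6.01-fold above SPA. Its second probe was at least 1.70-fold higher, and with normexp the log2 ratio was 0.95, under 2-fold. The alpha and beta chain of this receptor were thus found at their highest in different fractions.

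Macrophage markers differed among themselves between SPA and MA. Of 10 listed, 9 are on the array, and all 9 were well above background on every array. Their summed level, on the linear scale and in multiples of that percentile, amounted to 549 in SVC, 604 in SPA and 193 in MA. Lyz2, with levels of 8.74, 8.81 and 6.94, weighs most in that sum. The median log2 ratio of MA over SPA over the 9 markers was -0.40. Cd68, a lysosomal protein, was 8.58-fold lower in MA and Adgre1, the gene of F4/80, was 3.90-fold lower, whereas C1qa, a complement chain, was 11.3-fold higher and Mertk, a receptor for apoptotic cells, 4.96-fold higher. Lymphocyte markers summed to 6.41, 6.84 and 9.77, with 4 of 11 well above background on the SVC array, 5 on that of SPA and 9 on that of MA. Of the 10 lymphocyte markers well above background in MA or SPA, 4 were at least 5-fold higher in MA and 0 lower. Of all genes, 5.49% and 3.98% were so. Over the 4 measured on both arrays the median log2 ratio was 0.13. Nkg7 and Cd2 were not well above background in SVC or SPA and exceeded SPA in MA by at least 38.7-fold and at least 20.5-fold. Cd3e and Cd4, which weigh most in the sums, had log2 ratios of -0.08 and 0.34, and Ms4a1 was 1.95-fold lower. Mast cell markers summed to 0.32, 0.33 and 1.71, and Cpa3, Mcpt4 and Cma1 were well above background in MA only. The part of these cells in the values of Itgb2, Itgax, Itgb7 and Itgae was not tested.

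The other beta chains divided into chains that differed and chains that did not. Itgb3, the vitronectin receptor chain of platelets, osteoclasts and endothelium, had levels of 0.75 in SVC, 1.69 in SPA and -1.09 in MA. It was 6.87-fold lower in MA than in SPA, and its second probe was at least 6.66-fold lower. Platelet markers, of which 5, 5 and 6 of 8 were well above background in SVC, SPA and MA, had a median log2 ratio of MA over SPA of -0.06. Their summed levels were 33.9, 25.7 and 23.8, and Gp1ba and Gp5 were well above background on no array. Pf4, with levels of 5.065, 4.65 and 4.548, weighs most in those sums.

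Itgb1 had levels of 5.42 in SVC, 5.43 in SPA and 4.81 in MA, 1.54-fold lower in MA than in SPA. A junction probe of Itgb1 gave a log2 ratio of -1.06 there. Another, dim junction probe, well above background in MA only, went the other way, at least 1.71-fold higher in MA than in SPA. Itgb5, a vitronectin receptor chain, had 4.52, 4.53 and 4.61, the steadiest levels of the beta chains, with ratios of 1.06-fold at most between any pair of arrays. Itgb4, the partner of Itga6 in hemidesmosomes, had 0.37, -0.93 and -1.20, so that SPA was 2.46-fold below SVC and MA 1.20-fold below SPA. Its spots in SPA and MA had outlying local background, and at another probe with unmarked spots the log2 ratio of SPA over SVC was -0.41. In SPA, Itgb6 lay at least 1.84-fold and Itgb8 at least 3.50-fold below SVC. With normexp the log2 ratio of Itgb8 was -0.47, under 2-fold.

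Laminin chains were higher in MA than in SPA for 9 of 11, and 6 of 11 were at least 2-fold higher (Lama2, Lama3, Lama4, Lama5, Lamb3 and Lamc3). None was 2-fold lower, and none reached 5-fold. Of all genes, 15.8% were 2-fold higher there and 17.9% 2-fold lower, and 9558 of the 20663 measured on both arrays were higher. Lama4, the chain of capillary and adipocyte basement membranes, had levels of 2.34 in SVC, 2.45 in SPA and 3.93 in MA, 2.79-fold higher in MA than in SPA. All 4 of its probes were higher in MA, with log2 ratios from 0.19 to 1.48. Lama2, the chain of muscle and nerve sheaths, had 1.64, 1.48 and 3.1, 3.07-fold higher, but 3 dimmer probes gave log2 ratios from -0.07 to 0.68, and the median of its probes was 0.50. Lama5, a vascular and epithelial chain with 1 probe, had 0.47, 0.86 and 2.06, 2.30-fold higher.

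The beta and gamma chains found in most laminins showed smaller differences of the same direction. Lamb1 had levels of 4.02 in SVC, 3.94 in SPA and 4.53 in MA, and Lamb2, a chain of vessels and synapses, had 1.30, 1.98 and 2.77. They were 1.51-fold and 1.73-fold higher in MA than in SPA. Lamc1 had 3.64, 3.99 and 4.93, 1.93-fold higher. The 4 Lamc1 probes gave log2 ratios from 0.91 to 1.31, and the 4 measured Lamb1 probes from 0.50 to 1.03, so all of them placed MA above SPA. Of the Lamc1 probes, 2 share a run of 55 bases and are nearly the same sequence. Lamc3 had -1.65, -1.91 and -0.19, 3.29-fold higher in MA than in SPA.

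Lama3 and Lamb3 belong to the laminin that anchors epithelium. Lamb3 had levels of -2.32 in SVC, -4.02 in SPA and -1.79 in MA, with SPA 3.25-fold below SVC and MA 4.70-fold above SPA. Lama3 had -3.78, -4.94 and -3.49, so that SPA was lowest for both chains. Under normexp, SPA over SVC gave log2 ratios of -0.32 for Lama3 and -0.70 for Lamb3, and MA over SPA gave 0.51 for Lama3, all under 2-fold. Lama1, the chain of embryonic and some epithelial basement membranes, had -0.21, -1.59 and -2.23, 2.61-fold lower in SPA than in SVC.

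Mesothelial and epithelial markers differed between SVC and SPA beside these chains. All 10 mesothelial markers were well above background on every array, and 7 of 10 were at least 5-fold lower in SPA. Their median log2 ratio was -2.57, and their summed levels were 73.6 in SVC, 18.0 in SPA and 26.9 in MA. For MA over SPA, 4 of the 10 were at least 5-fold higher and 0 lower, beside 5.49% and 3.98% of all genes. The median log2 ratio of the mesothelial markers there was 0.50. Of 9 epithelial markers, 6 were at least 2-fold lower in SPA, with summed levels of 4.24, 1.20 and 0.80. Epcam was well above background in SVC only, and Grhl2 on no array. The part of these cells in the values of Itga3, Itgb4, Lama1, Lama3 and Lamb3 was not tested.

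Endothelial markers differed between SPA and MA beside the laminin chains. All 10 were well above background on every array and all 10 were at least 5-fold higher in MA than in SPA. Their median log2 ratio was 3.61, and their summed levels were 7.18 in SVC, 9.67 in SPA and 141 in MA. Cdh5, the cadherin of endothelial junctions, was 18.9-fold higher and Pecam1 was 6.70-fold higher. Adipocyte markers summed to 10.3, 84.9 and 3270, with 9 of 10 at least 5-fold higher in MA than in SPA, and 7 of 10 in SPA past 5-fold over SVC. Adipoq and Plin1 were not well above background in SVC. The adipocyte markers followed the labels of the fractions. The endothelial markers were highest in MA and not in SVC, whose label names vascular cells. Erythrocyte markers summed to 0.40, 0.43 and 719, and stromal fibroblast markers to 291, 160 and 424. Of the 10 fibroblast markers, 5 were at least 2-fold higher in MA than in SPA and 2 lower, beside 15.8% and 17.9% of all genes. Dpt was 42.7-fold higher, whereas Pdgfra was 4.14-fold and Pdgfrb 2.68-fold lower. Smooth muscle and pericyte markers, all 9 well above background on every array, summed to 758, 352 and 78.2, with a median log2 ratio of MA over SPA of 0.63. Rgs5, of pericytes, was 40.2-fold higher in MA, and Tagln, of contractile cells, 8.58-fold lower. How much of the MA values of Itga1, Itga6, Itga7 and the laminin chains came from each cell type was not tested.

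**Figure D3:**
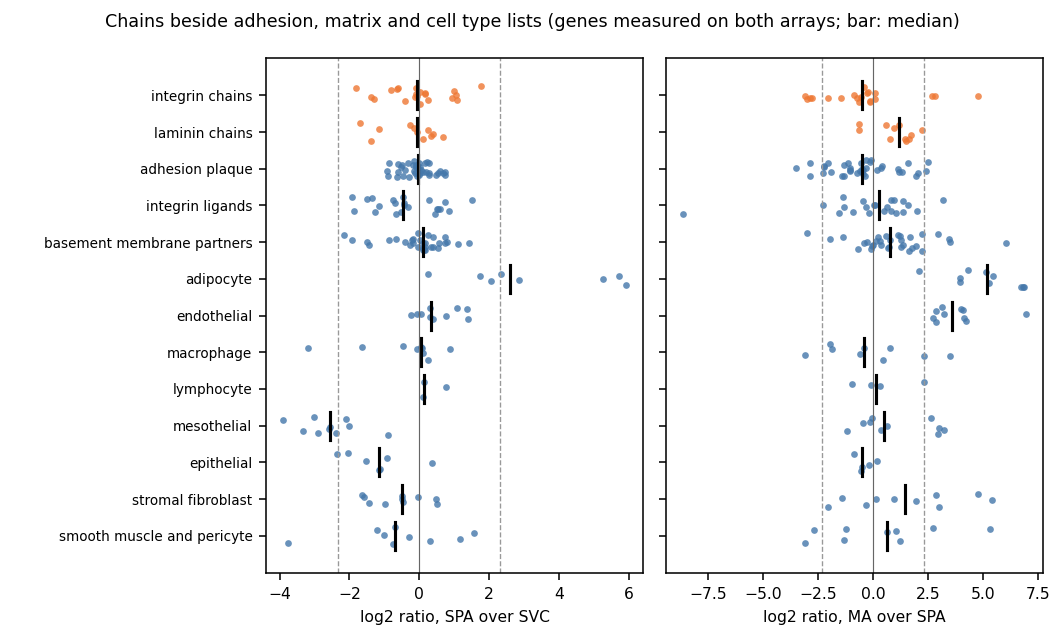
Log2 ratios of integrin and laminin chains (orange) beside genes of adhesion, matrix and cell type lists (blue) for SPA over SVC (left) and MA over SPA (right), 1 point per gene measured on both arrays, with bars at the medians and dashed lines at 5-fold. On the right the laminin chains center at 1.20, near basement membrane partners at 0.76, while endothelial markers center at 3.61 and integrin chains at -0.48.

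The partners of laminin in the basement membrane and its receptors outside the integrins were also more often higher than lower in MA. Of 36 genes, 35 were well above background in MA or SPA. At 5-fold, 5 were higher in MA and 1 lower, beside 5.49% and 3.98% of all genes, and at 2-fold the counts were 17 and 3, beside 15.8% and 17.9%. Their median log2 ratio was 0.76. Nid2, which links laminin to collagen IV, was 11.0-fold higher in MA than in SPA. Smoc1, a small calcium-binding matrix protein, was 65.3-fold higher, Col15a1, a collagen beneath capillaries and muscle, 11.4-fold, Egflam, a ligand of dystroglycan, 7.70-fold, and Col4a4 at least 6.06-fold. Fbln2, which binds laminin and elastic fibers, was 8.07-fold lower. Between SPA and SVC, 3 of the 36 were 2-fold higher and 4 lower, beside 3.9% and 3.25% of all genes, with none at 5-fold.

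Over MA and SVC, the collagen IV chains that form the common network were past 5-fold, with Col4a1 5.06-fold and Col4a2 5.24-fold higher in MA. Col15a1 was 19.8-fold higher, Smoc1 17.3-fold, Egflam at least 21.6-fold and Col4a4 at least 5.34-fold, and Fbln2 was 6.84-fold lower. At 5-fold, 6 of the 36 genes were higher and 1 lower, beside 5.74% and 3.97% of all genes. The median log2 ratio was 0.72.

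Ligands of integrins other than laminin and collagen went both ways. Of 32 genes, 27 were well above background in MA or SPA. At 5-fold, 3 were higher in MA and 1 lower, beside 5.49% and 3.98% of all genes, with a median log2 ratio of 0.28. Vtn, vitronectin, had only bounds in SVC and SPA and had a level of 1.68 in MA, with a log2 ratio over SPA of at least 6.74. Spp1, osteopontin, had levels of 4.78, 5.22 and -3.42 and was 398-fold lower in MA. Both proteins are ligands of Itgav with Itgb3, and the chains of that receptor were 4.15-fold and 6.87-fold lower in MA. Icam2, a ligand of Itgal with Itgb2 on endothelium, was 9.01-fold higher, and Emilin3 at least 5.73-fold higher.

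Npnt, nephronectin, a ligand of Itga8, was the 1 ligand past 5-fold between SVC and SPA, at least 9.56-fold lower in SPA. At 2-fold, 2 ligands were higher in SPA and 7 lower, beside 3.9% and 3.25% of all genes. Over MA and SVC, 4 ligands were at least 5-fold higher and 4 lower, beside 5.74% and 3.97% of all genes. The lower ones were Spp1 (293-fold), Ctgf (13.5-fold), Npnt (at least 9.65-fold) and Cdh1 (at least 5.29-fold), and the higher ones Vtn (at least 99.5-fold), Icam2 (11.0-fold), Vwf (5.49-fold) and Emilin3 (at least 5.04-fold).

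The proteins of the adhesion plaque, which tie the tails of integrins to actin, did not pass 2-fold between SVC and SPA. Of 38 measured genes, 0 differed 2-fold there, beside 3.9% of all genes higher and 3.25% lower, and the median log2 ratio was -0.05. Between MA and SPA, 15 were at least 2-fold lower in MA and 8 higher, beside 17.9% and 15.8% of all genes, with a median of -0.50. Actn1, which crosslinks actin, was 11.2-fold lower in MA. Apbb1ip, which brings talin to integrins, was 7.37-fold lower and Parvg, the parvin of blood cells, 7.32-fold lower. Nedd9, a docking protein, was 5.65-fold higher and Tns1, a tensin that binds integrin tails, 5.38-fold higher. Over MA and SVC, Actn1 was 14.7-fold and Apbb1ip 5.26-fold lower, and Tns1 5.24-fold higher.

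Probes of the same chain differed enough to bear on single ratios. For SPA over SVC, 20 chains had several probes measured on both arrays, and in 8 of them the signs were mixed. For MA over SPA these numbers were 16 and 5, with a median range of 0.62 and a largest range of 4.71 on the log2 scale, that of Itga6. Of the 8 chains past 5-fold between SPA and MA, Itgb2 and Itgb7 have 1 probe each, and Itga7 and Itgb3 were past 5-fold at each of their probes.

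**Figure D4:**
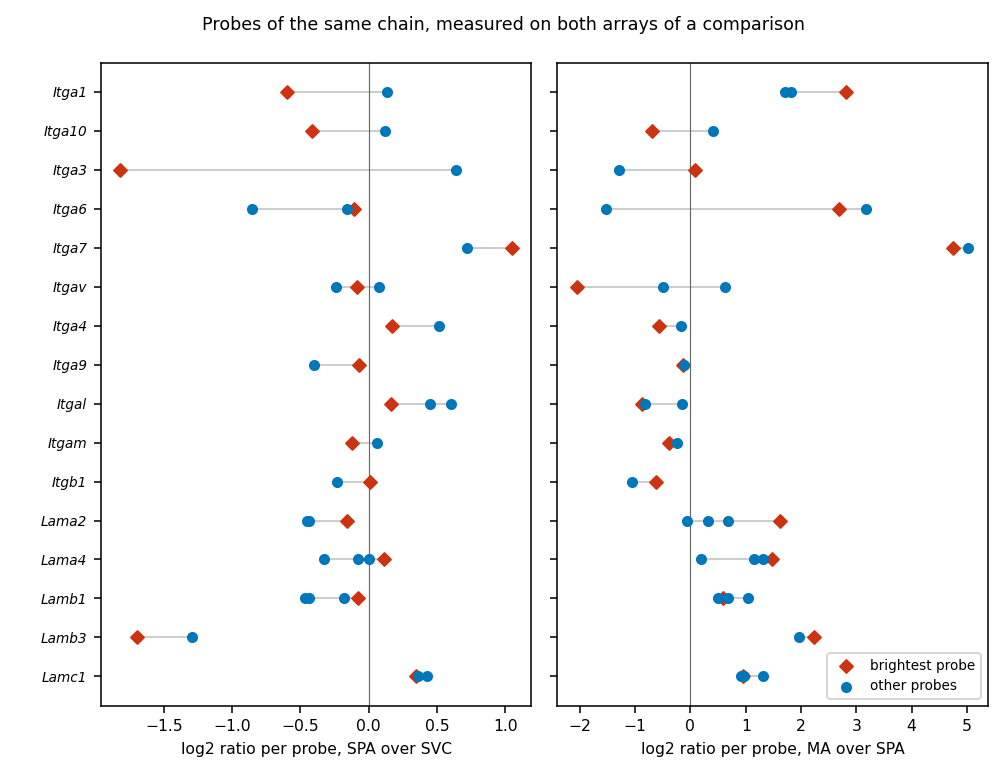
Log2 ratio of each probe measured on both arrays, for SPA over SVC (left) and MA over SPA (right). Red diamonds mark the brightest probe of a chain and blue circles the others. The chains shown in both panels are those with several probes measured for MA over SPA. Itga11, Itgax, Itgb3 and Itgb4 had several only for SPA over SVC and are not shown. Itga6 spans from -1.53 to 3.17 on the right, while the probes of Itga7, Lama4, Lamb1, Lamb3 and Lamc1 all lie above 0 there.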

How the data were processed

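Gene expression was measured with 1 Agilent 1-colour microarray each of SVC, SPA and MA, on 1 slide. The authors deposited spot intensity values from Agilent Feature Extraction 10.7.3.1, as a processed signal after background subtraction and detrending. The authors also deposited a ratio per spot, which equals the processed signal divided by 1 constant per array, within a relative 1.37e-06. The study names GeneSpring GX. Control spots and 75, 98 and 129 outlier spots in SVC, SPA and MA were left out. Spots well above background made up 58.6%, 61.4% and 61.3%, and 0 were saturated. All genes were read as described above for the chains. The dim side of a ratio was set to the higher of its own level and the lowest level of a probe well above background on that array, -4.95 in SVC, -5.14 in SPA and -5.15 in MA.

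Fractions were compared at the 5-fold limit of the study and at 2-fold, with no test, because each fraction has 1 array. The genes named are the chains and, of the pathway lists, the genes past 5-fold, at most the 6 largest for each list, comparison and direction. Results for some of these genes are not reported here, and counts and medians include them. The chains and lists were chosen with earlier results of these data known. Of 94 chain probes, 58 had their accession in the gene table of the GRCm38.p6 assembly, 0 of them under another symbol. Alternatives covered normexp with an offset of 50, quantile normalization, another percentile, the deposited ratios, the filter on dim probes, the choice of probe, outlying local background and the fold limit. The calls were tested on simulated data. Known fold changes were put into bright probes there, so dim probes and error between animals or cultures were not covered. R 4.3.3 with limma 3.58.1 and Python 3.11.15 with numpy 2.4.6, pandas 2.3.3 and matplotlib 3.10.9 were used.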

Additional observations from a re-analysis of the deposited data

How the results depend on the processing

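Of 60 counts of chains recomputed under another setting, 50 lay within 1.5 times the reported count. With 2-fold in place of 5-fold, 3 chains were higher and 7 lower for SPA over SVC, 10 were higher for MA over SPA, and 10 were higher and 13 lower for MA over SVC. The count of chains 5-fold higher in MA than in SPA was 2 (Itga6 and Itga7) with normexp and with the median of the probes. The count 5-fold lower in MA than in SVC was 2 (Itgb6 and Itgb8) without the filter on dim probes, 1 (Itga6) at the probe of the largest ratio and 1 (Itga6) without spots of outlying local background. Of 436 recomputed ratios of chains past 2-fold, 434 kept their sign. Several settings could not reverse a sign. The deposited ratios are the same signal over 1 constant per array, and the filter on dim probes leaves measured ratios unchanged. The probe of the largest ratio is chosen in the direction of the main ratio. Without spots of outlying background, Itga6 reversed, to -1.53 for MA over SPA and -2.39 for MA over SVC on the log2 scale, since it was then read at another probe. Itga7, Itgb2, Itgb3 and Itgb7 were past 5-fold between MA and SPA under all 10 settings at that limit. Itgax and Itga6 were so under 9, Itga1 under 8 and Itgae under 7. Itgb2 and Itgb7 have 1 probe each, so the choice of probe could not change them. No paired analysis was possible because each fraction has 1 array. Precision is limited by having 1 array per fraction, and dim probes have only bounds.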
